A study of Mus musculus with 22 samples.

Results

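Levels of 8 neural stem cell identity genes were followed through 22 mouse RNA-sequencing samples: *Nes*, *Vim*, *Sox1*, *Pax6*, *Nr2e1*, *Fabp7*, *Slc1a3* and *Gli3*. The genes were chosen as a list of neural stem and progenitor genes and found by Ensembl gene identifier. All 8 were among the 39179 genes counted in each sample, and each symbol matched 1 identifier. The study compared wild type (WT) mice and cells with a knockout (KO) of *Phf8*, an X-linked histone demethylase gene, in which a pair of exons of the catalytic Jumonji domain had been removed. Cultures of embryonic stem cells (ESC, 2 WT and 2 KO) and of neural progenitor cells (NPC, 3 WT and 3 KO) were sequenced. Adult tissue was prefrontal cortex (PFC) and ventral striatum (STR) of mice 2 months old, with 3 WT and 3 KO samples of each. Strain background was B6x129SvJ in every group. NPCs came from E16.5 embryos and grew as a monolayer on polyornithine. According to the sample labels, ESCs came from blastocyst outgrowths and were kept on gelatin and feeders. The study's methods describe targeted V6.5 ESCs picked as clones, from which the KO mice were made. The labels do not say which samples shared a clone, an embryo or a mouse, so p-values measure the spread between these samples, part of which may be technical.

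Neural stem cells of the embryonic brain are radial glia, which divide at the ventricle and give rise to neurons and later to astrocytes and oligodendrocytes. They hold a characteristic set of intermediate filaments, transcription factors and transport proteins, and several of these persist in adult astrocytes or in particular adult neurons. For this reason the same gene can mark a stem cell in culture and another cell type in adult tissue. Here *Nes* (nestin) and *Vim* (vimentin) encode intermediate filaments. *Sox1*, *Pax6* and *Nr2e1* (also called Tlx) encode transcription factors of neural progenitors, and *Nr2e1* maintains adult neural stem cells. *Fabp7* encodes the brain lipid-binding protein of radial glia and *Slc1a3* the glutamate transporter GLAST of radial glia and astrocytes. *Gli3* encodes a transcription factor that acts largely as a repressor at the end of the hedgehog pathway.

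On GRCm38, *Nes* (ENSMUSG00000004891) lay at chr3:87971078-87980451, *Vim* (ENSMUSG00000026728) at chr2:13573927-13582826, *Sox1* (ENSMUSG00000096014) at chr8:12395295-12400126 and *Pax6* (ENSMUSG00000027168) at chr2:105668900-105697364, all on the plus strand. *Fabp7* (ENSMUSG00000019874) lay at chr10:57784881-57788450 and *Gli3* (ENSMUSG00000021318) at chr13:15463235-15730026, also on the plus strand. *Slc1a3* (ENSMUSG00000005360) at chr15:8634124-8710764 and *Nr2e1* (ENSMUSG00000019803) at chr10:42561963-42583632 were on the minus strand. Counts were summed over exons. The exons of *Gli3* overlapped those of an antisense gene, *Gm6556*, over 1.96% of their length and those of *Sox1* a microRNA gene, *Gm25239*, over 1.78%. The other 6 genes shared no exon base with an annotated neighbour.

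The promoters of 3 genes are shown because these genes had the widest range of levels between ESCs and NPCs. RefSeq promoter windows on GRCm38.p6 run from 250 bases before to 50 bases after a start, and a window was found for all 8 genes. Only bases before the annotated start are printed, from 5′ to 3′ on the gene's strand, and capitals mark the letters CCAAT or, on the other strand, ATTGG. *Fabp7* is shown at chr10:57784673-57784880, *Slc1a3* at chr15:8710808-8711057 and *Nr2e1* at chr10:42583633-42583840.
Fabp7: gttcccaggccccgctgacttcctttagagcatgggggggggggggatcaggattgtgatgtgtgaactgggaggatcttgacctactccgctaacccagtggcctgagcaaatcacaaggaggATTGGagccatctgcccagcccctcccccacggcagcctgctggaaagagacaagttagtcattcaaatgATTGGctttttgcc
Slc1a3: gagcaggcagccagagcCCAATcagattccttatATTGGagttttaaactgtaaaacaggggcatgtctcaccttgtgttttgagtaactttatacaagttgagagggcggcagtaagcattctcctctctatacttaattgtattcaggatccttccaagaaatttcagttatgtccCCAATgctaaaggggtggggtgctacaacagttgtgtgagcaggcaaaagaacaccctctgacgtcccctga
Nr2e1: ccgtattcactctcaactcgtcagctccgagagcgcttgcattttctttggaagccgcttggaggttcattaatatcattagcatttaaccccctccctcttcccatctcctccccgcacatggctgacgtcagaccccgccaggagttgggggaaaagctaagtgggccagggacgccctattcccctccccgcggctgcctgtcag
The printed stretch of *Fabp7* held 2 CCAAT matches, that of *Slc1a3* 3, and that of *Nr2e1* 0. CCAAT is a common promoter motif, found on either strand in 37.4% of 32544 mouse promoter windows of 300 bases. The printed stretches are shorter, at 208 bases for *Fabp7* and *Nr2e1* and 250 for *Slc1a3*. The windows of these genes also differed in CpG content, at 6 CpG in *Fabp7*, 3 in *Slc1a3* and 19 in *Nr2e1*, against a median of 7 over all windows. *Gli3* with 39 and *Sox1* with 37 were the most CpG-rich of the 8. The octamer ATGCAAAT, bound by POU factors, was found on one strand or the other in the window of *Sox1* alone among the 8, and in 1.75% of all windows. These are matches of letters, not binding sites.

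Counts on genes ranged from 5898286 to 15539811 per sample. Levels are given as CPM, counts scaled to the same library size in every sample. Targeted *Phf8* was at 62.7 and 70.3 CPM in WT ESCs and 16.2 and 22.2 CPM in KO ESCs, and at 38.4 to 49.8 CPM over the WT samples of NPC, STR and PFC and 13.4 to 20.7 CPM over their KO samples, with no overlap. Its log2 fold change was -1.41 in NPC (edgeR FDR 0.0285) and -1.37 in PFC (FDR 0.00193), which passed an FDR of 0.05, and -1.79 in ESC (FDR 1) and -1.37 in STR (FDR 0.0956), which did not. Both ESC cultures numbered 2 stood apart: 8 fibroblast and feeder cell markers summed to 3594 CPM in WT and 4389 CPM in KO culture 2, against 162 and 152 CPM in cultures 1. Both NPC cultures numbered 2 stood apart in oligodendrocyte markers, and the STR KO sample numbered 1 in 10 hypothalamus markers, which summed to 222 CPM there against 40.4 and 51.3 CPM in the other KO samples. The neuron marker *Slc17a7* was at 39.0 CPM in that STR sample and at 233 to 345 CPM in all other STR samples. Labelled cell types were checked against markers. Pluripotency markers, 10 in all, summed to 5149 to 6505 CPM in ESC samples and to 14.6 to 24.5 CPM in NPC samples, and 8 neuron markers summed to 36.8 to 62 CPM in NPC against 2449 to 3979 CPM in brain. The 8 oligodendrocyte markers summed to 2107 to 3436 CPM in NPC cultures numbered 1 and 3, against 1486 to 2366 CPM in brain. Among these markers, *Mog*, *Mag* and *Mobp* were lower in every NPC culture than in brain. In bulk samples such as these, fewer cells of a type and less RNA per cell cannot be told apart.

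**Figure D1:**
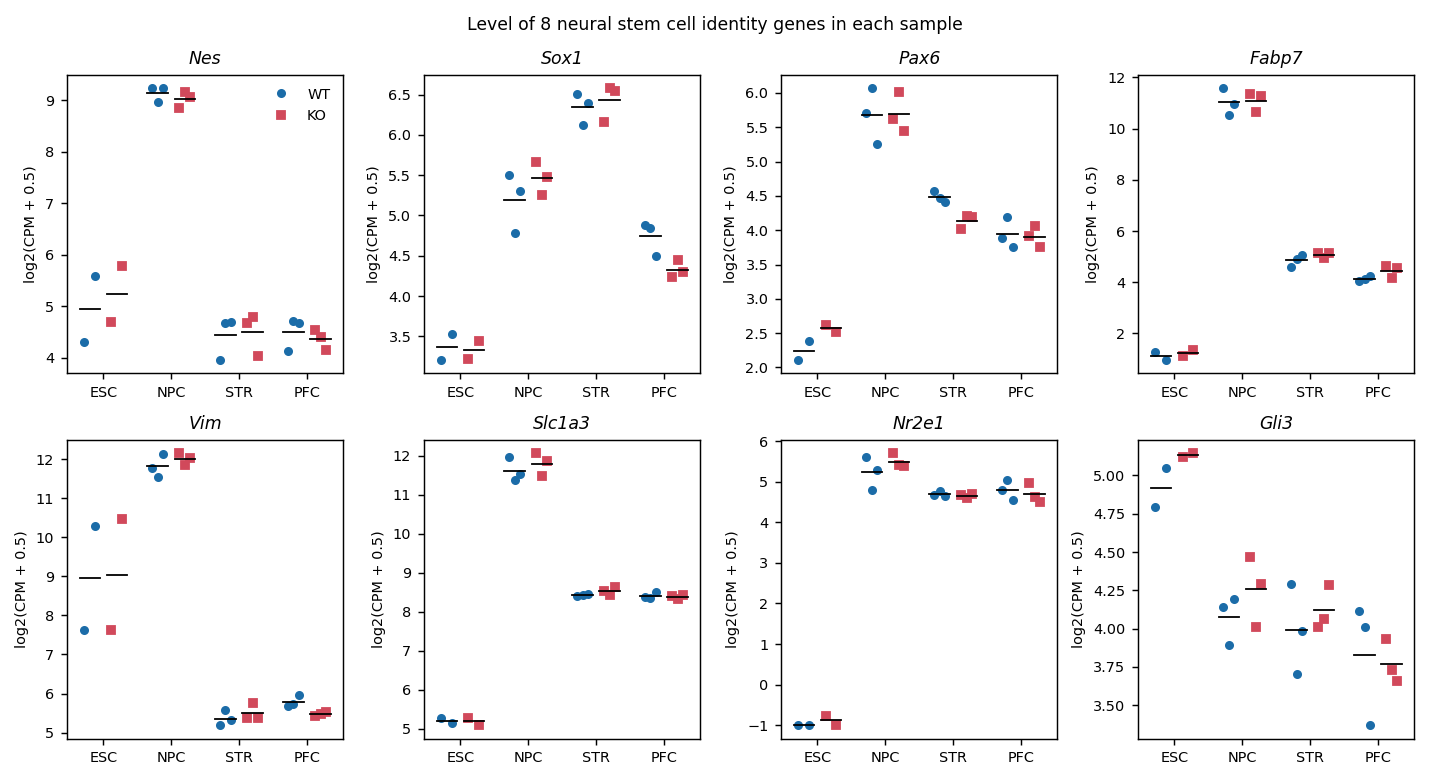
Level of each gene in every sample, as log2(CPM + 0.5) on the vertical axis, by cell type or brain region (ESC, NPC, STR, PFC). Circles are WT and squares KO samples, and black lines are group means. *Nes*, *Fabp7*, *Vim* and *Slc1a3* peak in NPC, *Sox1* peaks in STR, *Gli3* peaks in ESC, and *Nr2e1* has at most 1 count in any ESC culture.

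WT NPCs and ESCs were compared first, to see which of the genes separate a neural from a pluripotent culture. Of the 8 genes, 7 were higher in NPCs and *Gli3* was lower, at a false discovery rate (FDR, by Benjamini-Hochberg adjustment over all genes tested in edgeR's quasi-likelihood fit) under 0.05. Of all 16612 genes tested, 72.5% passed this threshold, 34.6% being higher and 37.9% lower in NPCs. The median log2 fold change was 3.90 over the 8 genes and -0.06 over all genes.

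*Fabp7* was measured at 1.91 and 1.46 CPM in WT ESCs and at 3064, 1466 and 2008 CPM in WT NPCs. This gene had the widest fitted difference of those with counts in ESCs, at a log2 fold change of 10.40 (SE 0.51, FDR 7.92e-07). *Slc1a3* was measured at 38.3 and 34.5 CPM in WT ESCs and at 3985, 2629 and 2941 CPM in WT NPCs, a log2 fold change of 6.51 (SE 0.278, FDR 3.41e-07). Both radial glial genes were far above the ESC range in all NPC cultures. Per kilobase of exon, *Fabp7* was the most abundant of the 8 genes in WT NPCs, with 1744 ± 650 RPKM (SD, n = 3), followed by *Vim* with 771 ± 160 RPKM and *Slc1a3* with 373 ± 83.2 RPKM.

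*Nr2e1* had 0 counts in both WT ESC cultures and 1 count in all over both KO cultures, and 48.7, 27.4 and 39.0 CPM in WT NPCs. With 3 counts over both WT ESC cultures taken as the limit that a count of 0 allows (0.139 CPM, counting error only), its mean level was at least 277-fold higher in NPCs. It was the one member not tested between KO and WT ESCs, being under the expression filter there. The median over the 8 genes stayed at 3.90 with *Nr2e1* set to this bound.

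*Pax6* was measured at 3.82 and 4.71 CPM in WT ESCs and at 51.9, 66.8 and 37.6 CPM in WT NPCs, a log2 fold change of 3.67 (SE 0.309, FDR 1.11e-05). *Sox1* was measured at 8.74 and 11.1 CPM in WT ESCs and at 44.8, 27.1 and 39.0 CPM in WT NPCs, a log2 fold change of 1.96 (SE 0.24, FDR 0.000102). Neither gene overlapped between the cell types, and their fold changes were smaller than those of the glial genes. Both were counted in every ESC culture, with at least 38 counts for *Pax6* and 87 for *Sox1*.

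*Gli3* was measured at 27.2 and 32.5 CPM in WT ESCs and at 17.1, 14.4 and 17.8 CPM in WT NPCs, a log2 fold change of -0.80 (SE 0.164, FDR 0.00208). KO cultures, which entered this fit only for its spread, had 34.3 and 34.9 CPM in ESC and 21.7, 15.6 and 19.1 CPM in NPC. *Gli3* was thus lower in the neural than in the pluripotent cultures in each genotype, with no overlap. Of 14 other hedgehog pathway genes, 13 were tested. Of these 6 were higher in NPCs, among them *Smo*, the signal transducer (log2 fold change 2.25, FDR 1.36e-06), and 3 were lower, so that 9 passed where 72.5% of all genes did. Among the lower genes were *Gli1* (log2 fold change -8.34, FDR 4.59e-08), a transcriptional target and activator of the pathway, and *Gli2* (-3.95, FDR 1.23e-05), the main activator.

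Levels of the 2 intermediate filament genes in ESCs moved with fibroblast marker RNA. *Vim* was measured at 197 and 1253 CPM in WT ESC cultures 1 and 2, and at 196 and 1408 CPM in the KO cultures. *Nes* was measured at 19.2 and 47.8 CPM in WT cultures 1 and 2, and at 25.5 and 54.7 CPM in the KO cultures. Each was higher in both cultures numbered 2, where *Col1a1*, a fibroblast collagen, was at 1628 CPM in WT and 1999 CPM in KO against 81.3 and 78.6 CPM in cultures 1. *Sox1* was also higher in the cultures numbered 2, by less, at 11.1 and 10.3 CPM against 8.74 and 8.85 CPM. *Slc1a3* was slightly lower there, at 34.5 and 33.5 CPM against 38.3 CPM in each culture 1. *Fabp7* (1.46 to 2.07 CPM), *Pax6* and *Gli3* overlapped between the numbers. The part of feeder cells in these levels was not tested.

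**Figure D2:**
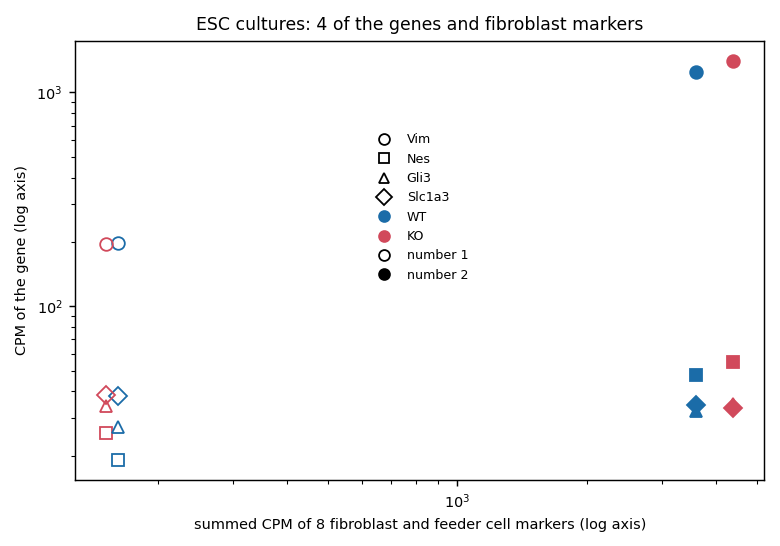
CPM of 4 of the genes in each ESC culture (vertical axis, log scale) against the summed CPM of 8 fibroblast and feeder cell markers (horizontal axis, log scale). Colour gives the genotype, open symbols are cultures numbered 1 and filled symbols cultures numbered 2. *Vim* is at 196 and 197 CPM in cultures 1 and at 1253 and 1408 CPM in cultures 2, *Nes* differs less, and *Slc1a3* stays between 33.5 and 38.3 CPM.

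Against these ESC levels, *Nes* was measured at 602, 500.3 and 601 CPM in WT NPCs, a log2 fold change of 4.14 (SE 0.479, FDR 8.87e-05). *Vim* was measured at 3533, 2968 and 4470.0 CPM in WT NPCs, a log2 fold change of 2.39 (SE 0.932, FDR 0.0459). Without both ESC cultures numbered 2, the log2 fold change rose to 4.96 (FDR 8.74e-06) for *Nes* and to 4.28 (FDR 4.11e-05) for *Vim*. The *Vim* call was lost with the replicate number as a block (log2 fold change 2.77, FDR 0.12), without a filter on low counts (FDR 0.109), without both NPC cultures numbered 2 (FDR 0.115), and when WT ESC culture 1 (FDR 0.169) or any WT NPC culture (FDR 0.071 to 0.0913) was left out. The direction was the same each time. The block here joined same-numbered ESC and NPC cultures of a genotype, whose deviations did not correlate over genes (-0.083 to -0.001).

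Other progenitor genes, 25 in all and chosen with earlier results of these data known, were tested in the same fit. Of these, 20 were higher in NPCs and 0 lower, where 34.6% and 37.9% of all genes tested were. Their median log2 fold change was 4.30. *Pou3f2* (log2 fold change 9.53, FDR 3.59e-08), a POU factor of neural progenitors, and *Ptprz1* (9.38, FDR 4.59e-08), a receptor phosphatase of radial glia, had the smallest adjusted p-values. The 5 that did not pass were *Sox2*, *Hes1*, *Prom1*, *Tnc* and *Id1*. *Sox2* is shared by pluripotent and neural stem cells.

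Adult brain was then compared with NPCs within WT samples, to see which of the genes keep their level in adult tissue. Of the 8 genes, 7 were lower in PFC than in NPCs and 0 higher, where 38.3% of 16631 genes tested were lower, 41.5% higher and 79.7% passed in either direction. In STR 6 were lower, *Sox1* was higher and *Gli3* did not pass, where 36.7% of 16623 genes tested were lower, 42.1% higher and 78.8% passed in either direction. The median of all genes was itself shifted, by 0.11 in STR and 0.06 in PFC on the log2 scale, and by 0.15 and 0.14 with RLE size factors. Culture and brain samples differ in how the cells or tissue were obtained, while the study's methods name the same RNA and library kits for all. Growth, dissection and any batch cannot be told apart from tissue.

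*Nes* was measured at 15, 25.2 and 25.2 CPM in WT STR and at 16.9, 25.7 and 25.1 CPM in WT PFC. *Vim* was measured at 36, 47.1 and 39.2 CPM in WT STR and at 50.5, 53.0 and 61.8 CPM in WT PFC. Both filament genes were near the lower end of their range in the series, and *Vim* was lower there than in the ESC cultures as well. The log2 fold change from NPC was -4.67 in STR (FDR 8.63e-09) and -4.66 in PFC (FDR 2.34e-10) for *Nes*, and -6.45 (FDR 2.37e-10) and -6.06 (FDR 4.18e-11) for *Vim*.

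*Fabp7* was measured at 23.8, 29.5 and 32.5 CPM in WT STR and at 16.3, 16.7 and 18.4 CPM in WT PFC. *Slc1a3* was measured at 339, 344 and 348 CPM in WT STR and at 333, 324 and 361 CPM in WT PFC. These 2 glial genes therefore parted in the adult brain. *Fabp7* was lower than in NPCs by a log2 fold change of -6.22 in STR (FDR 6.78e-09) and -7.00 in PFC (FDR 1.98e-09), and *Slc1a3* by -3.18 (FDR 1.08e-08) and -3.23 (FDR 5.93e-09). Per kilobase of exon *Slc1a3* was the most abundant of the 8 genes in adult brain, at 40.2 ± 0.51 RPKM in STR and 39.8 ± 2.21 RPKM in PFC (SD, n = 3 each). *Fabp7* came next, at 22.9 ± 3.56 and 13.7 ± 0.909 RPKM.

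*Sox1* was measured at 90.5, 69.2 and 83.8 CPM in WT STR and at 29.1, 28.2 and 22.2 CPM in WT PFC. All WT STR samples were above all NPC cultures, and PFC samples overlapped them. The log2 fold change from NPC was 1.17 in STR (SE 0.187, FDR 0.000119) and -0.48 in PFC (SE 0.172, FDR 0.021). *Sox1* was the one member whose highest level was in adult brain.

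*Nr2e1* was measured at 25.1, 26.8 and 24.6 CPM in WT STR and at 27.4, 32.3 and 22.9 CPM in WT PFC, within or just below the NPC range. Its log2 fold change from NPC was -0.56 in STR (SE 0.169, FDR 0.00971) and -0.48 in PFC (SE 0.197, FDR 0.0408). *Nr2e1* thus kept most of its NPC level in both adult regions. The PFC calls of *Sox1* and *Nr2e1* depended on the samples and the tool. With DESeq2 their FDR was 0.0586 and 0.0975, with WT samples alone 0.0534 and 0.0777, and it reached 0.103 and 0.201 when single WT samples were left out. Without both NPC cultures numbered 2 it was 0.000184 (log2 fold change -0.66) and 0.00175 (-0.66), and between KO samples 5.35e-05 (-1.16) and 0.00251 (-0.80).

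*Pax6* was measured at 23.2, 21.7 and 20.8 CPM in WT STR and at 14.3, 17.7 and 13.0 CPM in WT PFC, below all NPC cultures and above all ESC cultures. Its log2 fold change from NPC was -1.22 in STR (FDR 0.000153) and -1.79 in PFC (FDR 8.95e-06). *Gli3* was measured at 19.1, 12.5 and 15.4 CPM in WT STR and at 16.8, 15.6 and 9.84 CPM in WT PFC. *Gli3* overlapped between NPC, STR and PFC, and neither difference passed (log2 fold change -0.03, 95% interval -0.42 to 0.35, FDR 0.867 in STR, and -0.22, interval -0.63 to 0.19, FDR 0.29 in PFC). Between KO samples, the PFC difference of *Gli3* was -0.50 (FDR 0.0255).

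**Figure D3:**
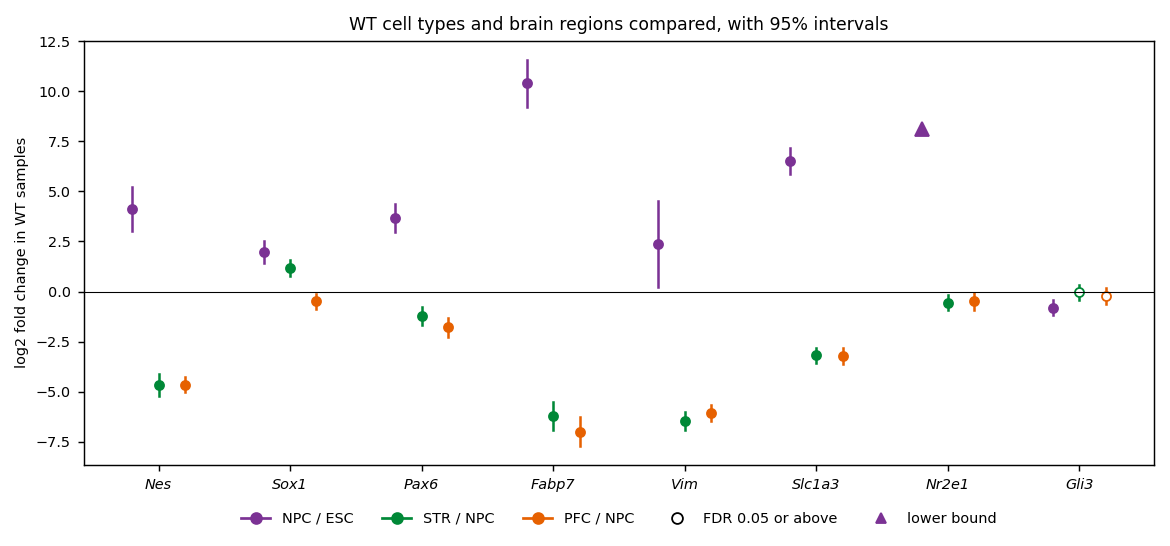
Log2 fold change of each gene between WT groups (vertical axis) for NPC against ESC, STR against NPC and PFC against NPC, with 95% intervals. Filled circles have an FDR under 0.05, open circles do not, and the triangle is the lower bound for *Nr2e1* (8.11). *Fabp7* reaches 10.40 in NPC against ESC and -7.00 in PFC against NPC, while *Gli3* stays near 0 between NPC and brain.

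Of the 25 other progenitor genes, 19 were lower and 1 higher in PFC than in NPCs, where 38.3% and 41.5% of all genes tested were. In STR 18 were lower and 1 higher, where 36.7% and 42.1% of all genes tested were. *Sox2* (log2 fold change -3.57, FDR 1.87e-11) and *Olig2* (-4.51, FDR 4.2e-11), a factor of ventral and oligodendrocyte progenitors, were among the 4 of smallest adjusted p-value in PFC. The exceptions were *Hopx* in PFC (0.91, FDR 3.37e-05), a homeodomain protein also made by astrocytes, and *Meis2* in STR (1.54, FDR 0.0211), a factor of striatal neurons. Astrocyte markers, 8 in all, summed to 1645 to 1738 CPM in WT STR and 1989 to 2217 CPM in WT PFC, within or near the 1847 to 3535 CPM of WT NPCs.

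WT PFC and STR were compared to see which of the genes differ between the adult regions. Of the 8 genes, 4 passed, where 26.1% of 16028 genes tested did. *Sox1* differed most, at a log2 fold change from STR to PFC of -1.63 (SE 0.134, FDR 4.1e-07), and *Fabp7* (-0.77, SE 0.14, FDR 0.000799) and *Pax6* (-0.56, SE 0.128, FDR 0.00446) were lower in PFC as well. No WT PFC sample reached the WT STR range for any of these 3 genes. *Vim* was higher in PFC (0.41, SE 0.123, FDR 0.0241). This fit left out the pairing of same-numbered STR and PFC samples. With the number as a block the same 4 genes passed (FDR 0.011 for *Vim*), where 5213 instead of 4183 of all genes did.

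KO samples, which this contrast used for its spread only, were compared in the same way. Between KO regions *Sox1* (log2 fold change -2.16, FDR 2.84e-08) and *Fabp7* (-0.63, FDR 0.00258) again passed. *Pax6* did not (-0.25, FDR 0.183), and *Vim* took the other sign (-0.06, FDR 0.781). *Vim* also lost its call in WT samples when STR sample 1, STR sample 3 or PFC sample 3 was left out (FDR 0.0979, 0.0687 and 0.0908). *Nes*, *Slc1a3*, *Nr2e1* and *Gli3* did not pass, and their 95% intervals together ran from -0.56 to 0.54.

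Levels of the 8 genes were then compared between the 6 NPC cultures. Standard deviations on the log2 scale ran from 0.152 for *Nes* and 0.203 for *Gli3* to 0.417 for *Fabp7*, with a median of 0.183 over all genes tested. The highest culture exceeded the lowest 2.09-fold for *Fabp7*, 1.87-fold for *Nr2e1* and 1.30-fold for *Nes*. The WT culture numbered 2 was the lowest of the 6 for *Sox1*, *Fabp7*, *Vim*, *Slc1a3*, *Nr2e1* and *Gli3*.

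The cultures carry replicate numbers 1 to 3 in each genotype, and same-numbered WT and KO cultures deviated together over all genes. Of the 8 genes, 4 differed with the number beside genotype, where 13.9% of 14351 genes tested did: *Pax6* (FDR 0.0174), *Fabp7* (FDR 0.0244), *Slc1a3* (FDR 0.0333) and *Sox1* (FDR 0.0417). In the cultures numbered 2, *Fabp7* was at 1466 CPM in WT and 1610.0 CPM in KO, below the 2008 to 3064 CPM of the other 4 cultures. *Slc1a3* was at 2629 and 2836 CPM there, below 2941 to 4252 CPM, and *Sox1* at 27.1 and 37.5 CPM, below 39.0 to 50.2 CPM. *Pax6* went the other way, at 66.8 and 64.3 CPM in the cultures numbered 2 against 37.6 to 51.9 CPM in the others.

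Each of the 4 calls was lost when some single cultures were left out. With edgeR, 0 of the 8 genes passed without WT culture 1 (FDR 0.0858 to 0.189 for the 4 genes named) or without KO culture 1 (FDR 0.0799 to 0.157), where the number passing over all genes went from 2001 to 27 and to 0. Without WT culture 2, *Sox1* (FDR 0.108) and *Fabp7* (FDR 0.0649) were lost, and without WT culture 3 *Sox1* (FDR 0.109), *Pax6* (FDR 0.0712) and *Slc1a3* (FDR 0.0564). Without KO culture 3 *Sox1* was lost (FDR 0.0939), and without KO culture 2 *Nr2e1* was gained (FDR 0.00769). *Sox1* was also lost with DESeq2 (FDR 0.109). At an unadjusted p under 0.05, 5 of the 8 genes passed in the full set, *Nr2e1* among them, where 32.6% of all genes tested did.

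Oligodendrocyte markers moved with the number. These markers, 8 in all, summed to 253 CPM in WT and 462 CPM in KO culture 2 and to 2107 to 3436 CPM in the other 4 cultures, and 4 of the 8 passed the same test, where 13.9% of all genes did, with *Sox10*, a lineage factor, at 5.93 and 14.9 CPM against 112 to 216 CPM. The 8 astrocyte markers summed to 1847 and 2032 CPM in the cultures numbered 2 and to 3224 to 4139 CPM in the others, and 1 of 7 tested, *Gfap*, passed (FDR 0.0468). Of 25 other progenitor genes 5 passed, both counts being near the share of all genes. Among the 5 were *Sox9* (FDR 0.0133), a glial fate factor, at 222 and 269 CPM against 340.0 to 398 CPM, and *Egfr* (FDR 0.0345), a receptor of proliferating progenitors, at 616 and 682 CPM against 358 to 449 CPM. *Mbp* and *Mag*, which encode myelin proteins, had counts in all 6 cultures. The part of such cells in the levels of the 8 genes was not tested.

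**Figure D4:**
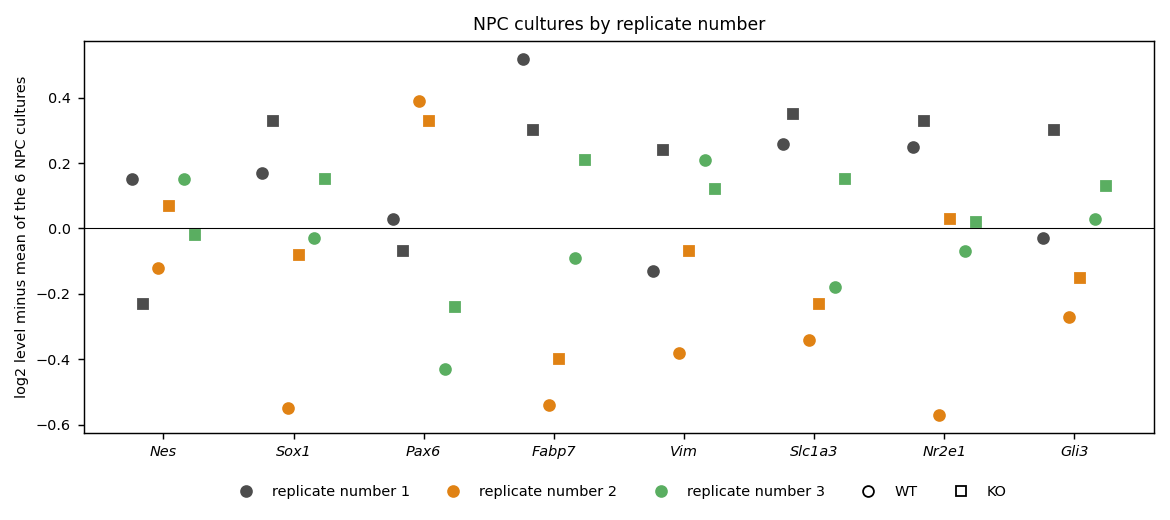
Log2 level of each gene in the 6 NPC cultures, minus its mean over the 6 (vertical axis). Colour gives the replicate number, circles are WT and squares KO. Cultures numbered 2 are lowest for *Fabp7*, *Slc1a3*, *Sox1* and *Gli3* and highest for *Pax6*.

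KO and WT were compared within each cell type and region, to see whether neural stem cell genes depend on *Phf8*. With edgeR 0 of the 8 genes passed in any of the 4 comparisons, and with DESeq2 also 0. Genes passing among all tested made up 0% in ESC, 0.00697% in NPC, 0% in STR and 0.638% in PFC. These counts moved with the processing: DESeq2 called 3 genes in ESC, 3 in NPC, 60 in STR and 182 in PFC. With edgeR the 98 genes of PFC became 2 without KO sample 2 or KO sample 3, 18 without WT sample 2, 37 without KO sample 1 and 154 without WT sample 1. With the replicate number as a block, 513 genes passed in ESC, 0 of the 8 among them. In ESC the number marked a difference that both genotypes shared, as fibroblast markers were higher in both cultures numbered 2. The main ESC fit left this out, while the block rests on only 2 cultures a genotype. At an unadjusted p under 0.05, 0 members passed in ESC, 0 in NPC, 1 in STR and 3 in PFC, against 1.13%, 3.03%, 8.7% and 11.2% of all genes tested.

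In NPCs, KO and WT overlapped for all 8 genes. Within same-numbered cultures, KO was above WT in 3 of 3 pairs for *Sox1*, *Slc1a3*, *Nr2e1* and *Gli3*, and below in all pairs for 0 genes. Over 14002 genes with a mean of at least 1 CPM in NPC, 16.6% were above and 17.8% below in all pairs. *Nes* was measured at 463, 571 and 537 CPM in KO NPCs and *Vim* at 4538, 3680.0 and 4182 CPM. *Fabp7* was measured at 2620.0, 1610.0 and 2458 CPM in KO NPCs, *Slc1a3* at 4252, 2836 and 3685 CPM and *Nr2e1* at 51.4, 41.8 and 41.5 CPM. In the fit without the replicate number, differences ran from -0.11 (*Nes*) to 0.25 (*Sox1*) on the log2 scale, and their 95% intervals together from -0.68 to 0.76. Changes within this range could not be told from none in that fit, which left out the pairing. The fitted spread between cultures (biological coefficient of variation) was 21.2% there and 10.1% with the number as a block. With the replicate number as a block, log2 fold changes ran from -0.11 (*Nes*) to 0.27 (*Sox1*, FDR 0.395, the smallest of the 8), and 3 instead of 1 of all genes passed. In ESCs, differences of 7 genes ran from -0.05 to 0.34, and the interval for *Vim*, whose cultures differed in fibroblast markers, was as wide as -4.25 to 4.58. That fit left out the number shared by both genotypes, and its fitted spread was 31.4% against 4.37% with the number as a block. With the block, *Nes* was at 0.28 (FDR 0.0707, the smallest of the 7) and *Vim* at 0.09 (FDR 0.444).

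In STR, *Pax6* was measured at 15.8, 17.9 and 17.7 CPM in KO samples against 20.8 to 23.2 CPM in WT. The groups did not overlap, and how many of all genes were so separated was not counted. The log2 fold change was -0.34 (95% interval -0.61 to -0.08, edgeR FDR 0.452). Over single samples left out it ran from -0.39 to -0.30, and without KO sample 1, which held the hypothalamus markers, it was -0.30.

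In PFC, *Sox1* was measured at 18.3, 21.3 and 19.2 CPM in KO samples against 22.2 to 29.1 CPM in WT, and *Vim* at 42.5, 44.0 and 45.7 CPM against 50.5 to 61.8 CPM. For both genes all KO samples were below all WT samples. How many of all genes were separated in this way was not counted. Neither passed after adjustment, with a log2 fold change of -0.46 (interval -0.72 to -0.19, edgeR FDR 0.134) for *Sox1* and -0.33 (interval -0.54 to -0.12, FDR 0.175) for *Vim*. *Sox1* passed without the filter on low counts (FDR 0.0398) and without WT sample 3 (FDR 0.0441). *Fabp7* was measured at 24.5, 17.7 and 22.8 CPM in KO against 16.3 to 18.4 CPM in WT, which overlapped (log2 fold change 0.33, interval 0.03 to 0.63, FDR 0.384). *Sox1* in STR, by contrast, had a difference of 0.10 (interval -0.20 to 0.39).

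**Figure D5:**
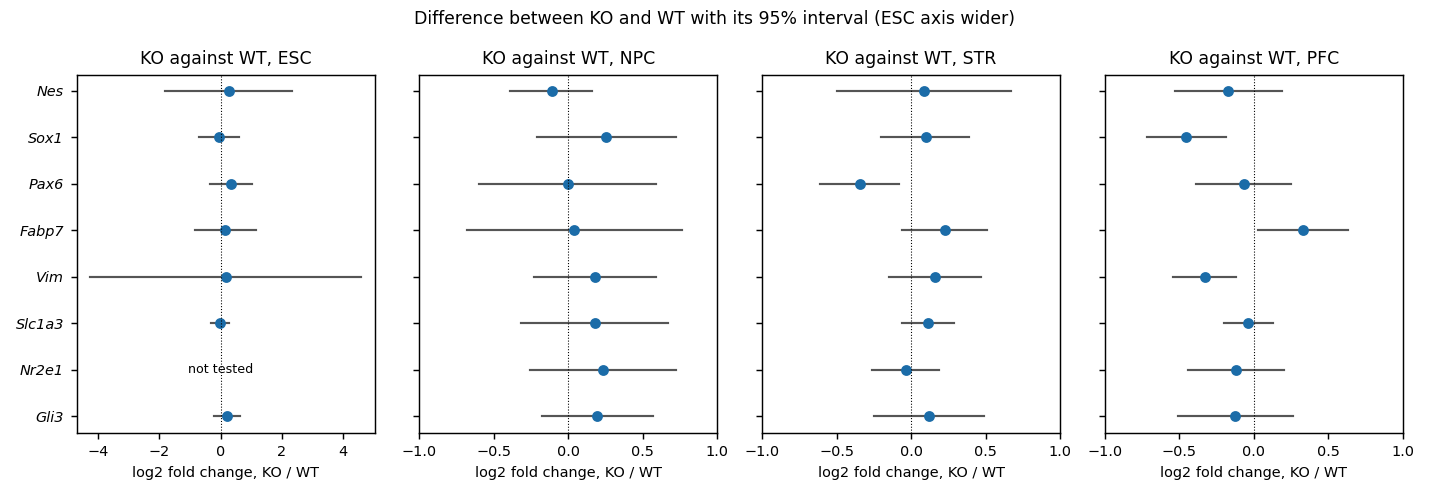
Log2 fold change between KO and WT samples for each gene (points) with its 95% interval (lines), by cell type or region, on a wider axis in ESC. The intervals for *Sox1* and *Vim* in PFC (-0.72 to -0.19 and -0.54 to -0.12) and *Pax6* in STR (-0.61 to -0.08) lie below 0 and that for *Fabp7* in PFC (0.03 to 0.63) above it, and no gene passed an FDR of 0.05.

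Whether the KO difference itself changed between cell types or regions was tested by interaction terms. Of the 8 genes, 0 passed between NPC and ESC, where 0% of 16612 genes did, and 0 passed between PFC and STR, where 0.00624% of 16028 genes did. At an unadjusted p under 0.05 the counts were 0 and 2 of the 8 genes, where 1.49% and 6.41% of all genes tested passed. The pair in the second test was *Sox1* (difference of log2 fold changes -0.53, edgeR FDR 0.649) and *Vim* (-0.47, FDR 0.659). With DESeq2 0 of the 8 genes passed in either test.

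Cell type markers in PFC were set beside these values. Of 8 oligodendrocyte markers, 4 were lower in KO PFC by edgeR, where 0.638% of 15364 genes tested passed in either direction. Those 4 were *Mog* (-0.95, FDR 0.00369), *Mag* (-0.60, FDR 0.024), *Mobp* (-0.59, FDR 0.0258) and *Sox10* (-0.59, FDR 0.0471). The 8 oligodendrocyte markers had a median log2 fold change of -0.54 against -0.02 over all genes. Their summed level was 1499 to 1598 CPM in KO and 1822 to 2366 CPM in WT PFC, with all 8 above 0 counts. Of 8 astrocyte markers, *Gfap* was lower (-0.49, FDR 0.0114). Calls over all genes in PFC fell from 98 to 2 without KO sample 2 or KO sample 3, and these marker calls were not followed there. Ependymal markers, 8 in all, summed to 7.96 to 11.1 CPM in KO and 14.7 to 16.7 CPM in WT PFC, with no overlap. With edgeR 0 of the 4 tested passed, among which *Foxj1*, a factor of ciliated cells, was at -1.03 (FDR 0.0503) and *Hydin*, a cilium protein, at 1.73 (FDR 0.209). Of 8 endothelial and pericyte markers 0 passed, with a median log2 fold change of -0.26 and summed levels of 313 to 386 CPM in KO and 355 to 449 CPM in WT. With edgeR, 0 of the 25 other progenitor genes and 0 of the 14 hedgehog pathway genes passed between KO and WT in PFC, STR, NPC or ESC. At an unadjusted p under 0.05, 4 of 24, 3 of 25, 2 of 25 and 1 of 22 progenitor genes tested and 2 of 14, 6 of 14, 0 of 11 and 0 of 13 hedgehog genes passed in that order, against 11.2%, 8.7%, 3.03% and 1.13% of all genes. The 6 hedgehog genes in STR were all higher in KO, by 0.42 (*Gas1*, a coreceptor) to 0.98 (*Gli1*) on the log2 scale, each with an FDR over 0.05, and hypothalamus markers were also higher there, at 40.4 to 222 CPM in KO against 23.6 to 28.5 CPM in WT. The part of such cells in the levels of *Sox1*, *Vim* and the hedgehog genes was not tested.

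Over all 22 samples, the levels of the 8 genes followed different orders. *Sox1* and *Pax6* had the most alike profiles of any pair, with a root mean square difference of 0.96 on the log2(CPM + 0.5) scale after centring, and *Vim* and *Nr2e1* the least alike, with 3.76. The genes outside the list whose profile lay closest were *Lpl* (0.23) for *Sox1*, *Rbmx* (0.21) for *Pax6*, *Tspan12* (0.20) for *Slc1a3*, *Elmsan1* (0.17) for *Gli3*, *Mro* (0.30) for *Nr2e1*, *Sox4* (0.38) for *Nes*, *Lgals1* (0.42) for *Vim* and *Ptprz1* (0.92) for *Fabp7*. The next closest were *Pde1b* (0.39), *Prkd1* (0.26), *Fam181b* (0.28), *Zfp955a* (0.20), *Amer2* (0.31), *Fbn2* (0.45), *F2r* (0.52) and *Ednrb* (0.97) in the same order of genes. *Fabp7* had no gene within 0.92 of its profile, the widest gap of the 8. *Lpl*, which encodes lipoprotein lipase, was measured at 6.68 to 9.55 CPM in ESC, 20.7 to 43.5 in NPC, 47.0 to 86.9 in STR and 18.6 to 23.5 in PFC, the same order as *Sox1*. *Lgals1*, a galectin of fibroblasts and progenitors, ranged from 57.0 to 354 CPM in ESC and from 459 to 787 CPM in NPC.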

How the data were processed

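Per the labels and the study's methods, the authors aligned reads of TruSeq RNA libraries to mm10 with STAR and counted them per gene with HTSeq. They deposited 1 table of raw counts for each sample, not normalized. CASAVA 1.7 is named in the submitters' processing notes. Strandedness of the counting is named for the cultures only, as not stranded, so antisense reads could not be separated.

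Samples were grouped by their labels. Gene names and positions came from GENCODE mouse release 21 on GRCm38, which matched 37693 of 39179 identifiers. CPM used TMM factors over all 22 samples, and RPKM divided CPM by the exon length. Groups were compared over all genes by quasi-likelihood tests (R 4.3.3, edgeR 4.0.16, robust fit, TMM factors, expression filter), at an FDR under 0.05 by Benjamini-Hochberg adjustment. The WT comparisons between tissues were fitted over the WT and KO samples of both. Alternatives were DESeq2 1.42.0, RLE size factors, no filter, a log2 fold change limit of 1, other sample sets, each sample left out, and the replicate number as a block. Those without both cultures numbered 2 and the counts of NPC pairs were chosen after seeing the data. The pipeline was tested on simulated data.

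The 8 genes and the lists of markers, other progenitor genes and hedgehog pathway genes were chosen with earlier results of these data known. Named in the text were the 8 genes, *Phf8*, the 2 genes of nearest profile to each, and from each list at most 4 genes of smallest adjusted p in a comparison. *Col1a1*, *Egfr*, *Hopx*, *Meis2*, *Mbp*, *Gas1*, *Slc17a7* and the genes that did not pass were named after their values were seen.

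Replicates of a group differed by more than counting error (chi-square over its degrees of freedom 1.83 to 37.3), so each sample counted once. Deviations of same-numbered WT and KO samples correlated at 0.521 to 0.697 over genes in NPC, so the numbers were taken as pairs there, and likewise between STR and PFC of a genotype (0.143 to 0.366). The main fits between genotypes and between regions did not use this pairing. It entered with the replicate number as a block and in the counts of NPC pairs. Between ESC and NPC and between NPC and brain, the block joined same-numbered samples of a genotype. Their deviations correlated at -0.083 to 0.073, which is no pairing. In STR and PFC between genotypes the correlations ran from -0.034 to 0.131, which is no pairing. Multi-mapped reads, which were not counted, made up 43.2% to 45.5% of reads in ESC, 33.2% to 34.3% in NPC and 7.62% to 8.9% in brain. The floor for counts covers counting error only. Intervals of fold changes came from the quasi-likelihood fits and include the spread between samples.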

Additional observations from a re-analysis of the deposited data

How the results depend on the processing

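Of 1119 values of single genes under alternatives, 1065 kept their side of the threshold, 57 of them with the other sign and a call in neither setting, 49 lost and 4 gained the call, and 1 reversed: *Vim* in PFC against STR was -0.059 with KO samples compared. Between KO and WT, the count over all genes was 3 (ESC), 3 (NPC), 60 (STR) and 182 (PFC) with DESeq2, and 2, 27 and 379 in NPC, STR and PFC without the filter, where 1 of the 8 genes passed in PFC. A log2 fold change beyond 1 left 18 in PFC. With the replicate number as a block it was 513 in ESC, 3 in NPC and 8 in STR. In ESC, deviations of same-numbered cultures correlated at 0.87 over genes, which the main fit left out. The fit with the block rests on only 2 cultures a genotype. The count over all genes was 0 in NPC without both cultures numbered 2. Leaving out 1 sample gave 0 in NPC, 0 to 2 in STR and 2 (without KO sample 2 or 3) to 154 in PFC, with 0 to 1 of the 8 genes passing in PFC. The fold change limit left 8766 genes in PFC against NPC, 8637 in STR against NPC, and 1353 in PFC against STR with 1 of the 8 genes. Over all 22 samples in 1 fit, 2538 genes and 2 of the 8 passed in PFC against STR, and with KO samples 2 of the 8. The region interaction gave 19 genes with DESeq2, 2 without the filter, 12 with the block and 1 to 3 with 1 sample left out, and that of cell type 0 to 1. For the NPC replicate number, 0 to 5 of the 8 genes and 0 to 2403 of all genes passed with 1 culture left out. The block changed the call of *Vim* in NPC against ESC (FDR 0.12) and *Nr2e1* in PFC against NPC (FDR 0.0585), and of no other of the 8 genes. In both of these comparisons it joined samples whose deviations did not correlate. The causes were not tested. With 2 or 3 samples a group, the number of samples limits what a missed call shows, and *Nr2e1* in ESC is limited by depth.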

Other observations

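Genes of intermediate progenitors and newborn neurons mark the next stage after the neural stem cell. Of 10 such genes, 9 were tested between WT NPCs and ESCs, and 3 were higher and 3 lower in NPCs, near the 34.6% and 37.9% of all genes. Their median log2 fold change was 1.34 against -0.06 over all genes, and their summed level 138 to 242 CPM in WT ESCs and 518 to 645 CPM in WT NPCs. *Dcx*, a microtubule protein of migrating neuroblasts (log2 fold change 7.86, FDR 1.21e-05), and *Sox11*, a factor of newborn neurons (1.82, FDR 1.01e-05), were higher by edgeR's quasi-likelihood test. *Neurod1* (-8.95, FDR 1.78e-06) and *Eomes* (-7.54, FDR 1.76e-05), a marker of cortical intermediate progenitors that is also used outside the brain, were lower. In the adult regions 3 of 7 tested were lower and 3 higher in PFC than in NPCs, where 38.3% and 41.5% of all genes were, and 3 were lower and 4 higher in STR, where 36.7% and 42.1% of all genes were. *Dcx* also differed between the NPC cultures with their replicate number (FDR 0.0198), at 13.2 and 19.0 CPM in the cultures numbered 2 and 25.4 to 31.6 CPM in the others, the same direction as *Fabp7* and *Slc1a3*.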
